A study of Mus musculus with 26 samples.

Results

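The proteasome subunit genes of the mouse were placed against the domain boundaries of embryonic stem cells (ESCs) in the G1 phase. Members were all RefSeq protein-coding genes of GRCm38, the build also called mm10, whose symbol is Psma, Psmb, Psmc or Psmd followed by digits. The rule found 39 genes among 21521 protein-coding genes, on 16 chromosomes, and used no value of the boundary list.

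The study made 26 Micro-C libraries, in which micrococcal nuclease fragments the chromatin and ligation records which pieces touch, from a RAD21-dTAG mouse line derived from Bruce-4 cells of the C57BL/6J strain. In this line the cohesin subunit RAD21 carries a tag through which dTAG degrades it, so the vehicle-treated controls carry the tagged protein too. Only the group G1_ESC_DMSO, 6 libraries of ESCs given 0.05% v/v DMSO as vehicle, gives values here, as 1 pooled boundary list. The groups G1_ESC_dTAG (6 libraries, 500 nM dTAG), G1_ESC_A485 (6 libraries, 20 µM A485, which blocks the p300 and CBP acetyltransferases), G1_EpiLC_DMSO (4 libraries of epiblast-like cells, 0.05% v/v DMSO) and G1_EpiLC_dTAG (4 libraries of such cells, 500 nM dTAG) were not analysed here. The list holds 3515 intervals of 25 kb, with no score and no value per library, so no share or distance below has a replicate error, the number of contacts behind an interval is unknown, and the cell type label could not be checked against marker genes. The intervals were described with no test, and a domain is the stretch between neighbouring intervals of a chromosome.

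The proteasome is the protease complex that degrades proteins tagged with ubiquitin. Its core particle is a barrel of alpha rings, which gate the entrance, around beta rings, which hold the proteolytic sites. A regulatory particle caps the barrel: its base holds a ring of ATPases that unfold the substrate and receptors that bind ubiquitin, and its lid removes the ubiquitin chain. Most subunits are made in all cells, while some core subunits are replaced by inducible or tissue-restricted forms.

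A member was called near a boundary when either end of the gene lay inside an interval or within 10 kb of it. By that rule 13 of the 39 proteasome genes (33.3%) were near a boundary, against 18.3% of all protein-coding genes, a ratio of 1.82. An end lay inside an interval for 9 of the 39 (23.1%), against 11.7% of all. The median distance from the nearest gene end to the nearest interval was 48.4 kb over the members (quartiles 1.68 and 199 kb) and 98.9 kb over all protein-coding genes (quartiles 22.8 and 229 kb). Of the 20 genes counted with the regulatory particle (Psmc and Psmd), 10 were near, and of the 19 genes of the core particle (Psma and Psmb), 3 were near. This pooling of the 4 classes into particles was chosen after seeing the data. By class, 2 of 8 Psma, 1 of 11 Psmb, 3 of 6 Psmc and 7 of 14 Psmd genes were near. The difference between the particles was not tested, since genes are not replicates and the list is a single pooled one.

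**Figure D1:**
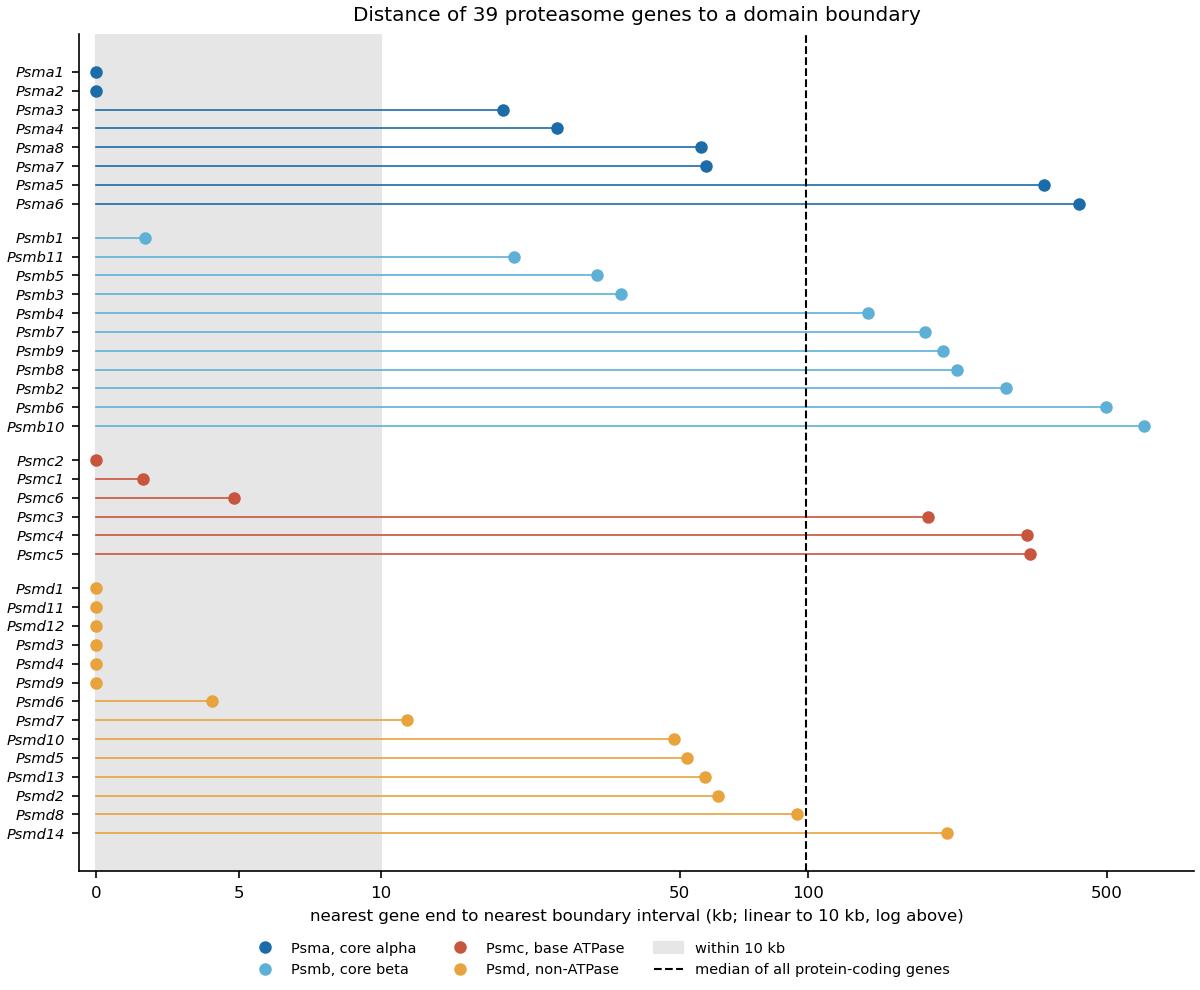
Distance in kb from the nearest gene end to the nearest boundary interval for each of the 39 proteasome genes, sorted within 4 classes, on an axis that is linear up to 10 kb and logarithmic above. Points at 0 have an end inside an interval, the shaded band holds the 13 near genes, and the dashed line is the median of all protein-coding genes, 98.9 kb.

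The promoters of the members whose annotated start lay inside an interval are printed first, because for these 5 genes the boundary interval holds the start itself. They were read from RefSeq GRCm38.p6, as the 250 bases before the start, 5′ to 3′ on the gene's strand. Capitals mark matches to the motifs listed further on: a CCAAT box, GC boxes, an AP-1 site, cores of the antioxidant response element and Ets-type sites. Psmd3 also lay wholly inside an interval, but its annotated start and promoter were not at hand. All 5 printed genes belong to the Psmd class. They are Psmd1 (plus strand, chr1:86064369-86064618), Psmd4 (minus strand, chr3:95042615-95042864), Psmd9 (plus strand, chr5:123227940-123228189), Psmd11 (plus strand, chr11:80428365-80428614) and Psmd12 (plus strand, chr11:107479278-107479527).
Psmd1: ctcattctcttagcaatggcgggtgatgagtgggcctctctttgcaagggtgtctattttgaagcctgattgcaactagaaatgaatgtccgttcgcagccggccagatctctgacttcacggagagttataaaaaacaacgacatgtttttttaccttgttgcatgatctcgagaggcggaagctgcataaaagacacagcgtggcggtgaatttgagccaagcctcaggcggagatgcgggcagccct
Psmd4: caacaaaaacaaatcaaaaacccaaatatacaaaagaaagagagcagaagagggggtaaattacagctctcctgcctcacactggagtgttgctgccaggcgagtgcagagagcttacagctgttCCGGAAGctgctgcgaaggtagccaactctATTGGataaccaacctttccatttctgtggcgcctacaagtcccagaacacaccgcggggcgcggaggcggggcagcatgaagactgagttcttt
Psmd9: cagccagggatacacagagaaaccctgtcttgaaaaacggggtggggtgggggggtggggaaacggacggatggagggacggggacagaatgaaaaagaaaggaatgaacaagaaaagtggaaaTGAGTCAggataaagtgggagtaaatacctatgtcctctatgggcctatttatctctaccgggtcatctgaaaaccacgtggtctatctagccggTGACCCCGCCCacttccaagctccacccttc
Psmd11: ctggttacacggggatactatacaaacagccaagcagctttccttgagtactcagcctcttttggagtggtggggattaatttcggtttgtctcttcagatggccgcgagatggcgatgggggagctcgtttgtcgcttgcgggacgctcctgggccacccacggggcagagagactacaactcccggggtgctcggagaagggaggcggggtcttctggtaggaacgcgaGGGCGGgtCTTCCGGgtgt
Psmd12: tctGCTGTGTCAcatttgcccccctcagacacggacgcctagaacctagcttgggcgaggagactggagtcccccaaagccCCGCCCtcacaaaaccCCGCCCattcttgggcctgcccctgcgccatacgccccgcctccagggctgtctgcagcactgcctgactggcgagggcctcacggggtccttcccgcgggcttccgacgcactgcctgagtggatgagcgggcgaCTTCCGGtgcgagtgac

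Of the 3 base subunits without ATPase activity, 2 were near a boundary, against 18.3% of all protein-coding genes. A group of 3 is too small to read as a share. Psmd4, the ubiquitin receptor of the base (chr3:95032688-95042614), lay wholly inside the interval chr3:95025001-95050000, between Zfp687, whose nearer end was 9.05 kb outside that interval, and Pip5k1a, at 8.53 kb. It was the single protein-coding gene with an end inside its interval. Psmd1, the large scaffold subunit of the base (chr1:86064619-86139295), began inside chr1:86050001-86075000 and ran out of it: 13.9% of its 74.7 kb lay in the interval and its other end was 64.3 kb beyond the edge. Psmd2, the other large scaffold subunit, was 61.6 kb from an interval.

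Of the 8 lid genes, 4 were near a boundary, against 18.3% of all protein-coding genes. The median distance was 7.79 kb for the lid genes and 98.9 kb for all. Psmd3 (chr11:98682554-98695978) and Psmd12 (chr11:107479528-107498036), scaffold subunits of the lid, lay wholly inside chr11:98675001-98700000 and chr11:107475001-107500000. Psmd11 (chr11:80428615-80473248), a lid subunit that contacts the core particle, began inside chr11:80425001-80450000 with 47.9% of its length there, and no other protein-coding gene had an end within 10 kb of that interval. Psmd6 (chr14:14112185-14120945) began 4.06 kb below chr14:14125001-14150000, and it too was the one protein-coding gene there. Psmd7 missed the rule narrowly at 11.5 kb. The remaining lid genes were Psmd13 at 57.4 kb, Psmd8 at 94.3 kb and Psmd14, the deubiquitinase of the lid, at 212 kb. The nearest boundary of Psmd14 was thus farther away than that of any other Psmd gene.

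The base ATPases fell into a near and a far set with none between. Psmc2 (chr5:21785275-21803787) ended inside chr5:21800001-21825000, with 20.5% of its length there and its start 14.7 kb outside. Psmc1 (chr12:100110202-100123364) ended 1.64 kb below chr12:100125001-100150000, and Psmc6 (chr14:45329823-45349074) began 4.82 kb above chr14:45300001-45325000. Psmc3, Psmc4 and Psmc5 were 191, 325 and 331 kb from an interval. The near ATPase genes were 13.2 to 19.3 kb long and the far ones 5.42 to 8.39 kb.

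Psmd5, Psmd9 and Psmd10 carry Psmd symbols but encode chaperones that assemble the base and leave it. Psmd9 (chr5:123228190-123250126) lay 99.4% inside chr5:123225001-123250000, with its start inside and its other end 0.126 kb past the edge. Psmd10 was 48.4 kb and Psmd5 52.1 kb from an interval. Without these chaperones, 9 of 17 regulatory particle genes (52.9%) were near a boundary, against 18.3% of all protein-coding genes.

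**Figure D2:**
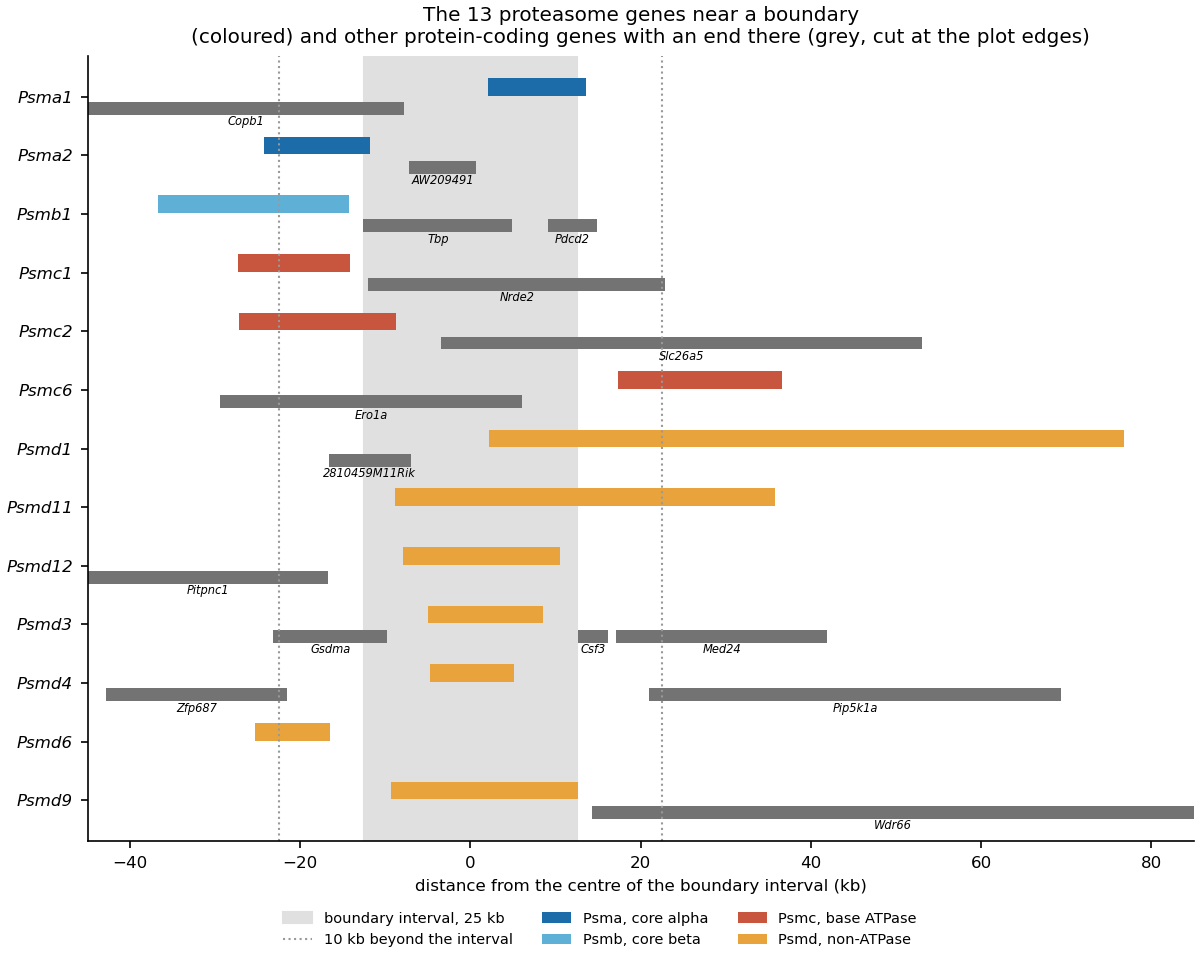
Position of the 13 near proteasome genes (coloured bars) relative to the centre of their boundary interval, in kb, with other protein-coding genes that have an end inside it or within 10 kb (grey bars, cut at the plot edges). Psmd3, Psmd4 and Psmd12 fit inside the 25 kb interval, while Psmd1 extends 64.3 kb past its edge.

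In the core particle, 2 of 8 alpha genes were near (25%), against 18.3% of all protein-coding genes. Psma1 (chr7:114264550-114276116) lay 90.4% inside chr7:114250001-114275000, with its start 1.12 kb outside, and shared the interval with an end of Copb1, a subunit of the coatomer of transport vesicles. Psma2 (chr13:14613242-14625673) reached into chr13:14625001-14650000 by 0.673 kb at the end of the gene, with its start 11.8 kb outside. The other alpha genes were Psma3 at 19.3 kb, Psma4 at 25.8 kb, Psma8 at 56.1 kb, Psma7 at 57.5 kb, Psma5 at 357 kb and Psma6 at 432 kb.

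Of the 11 beta genes, only Psmb1 was near (9.09%), against 18.3% of all protein-coding genes. The higher-numbered end of Psmb1 (chr17:15475721-15498276) lay 1.73 kb below chr17:15500001-15525000. Its strand was not at hand, so whether that end is the start is not known here. The interval also holds ends of Tbp, the TATA-binding protein gene, and of Pdcd2. The genes of the constitutive proteolytic subunits were all outside the window: Psmb5 at 32.0 kb, Psmb7 at 188 kb and Psmb6 at 497 kb. Psmb3, Psmb4 and Psmb2 were 36.5, 138 and 290 kb from an interval. Genes of the inducible or tissue-restricted core subunits were all outside as well, 0 of 5. Among all protein-coding genes 18.3% were near, and at that share groups this small can hold none. The counts thus say nothing of the restricted or the constitutive proteolytic subunits as groups. Psmb11, the thymus form, was 20.4 kb and Psma8, the testis form, 56.1 kb from an interval. The immunoproteasome genes were farther, with Psmb9 at 207 kb, Psmb8 at 223 kb and Psmb10 at 611 kb, the greatest distance among the members.

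Widening the window added members of each class but the ATPases. Within 25 kb there were 16 members (41.0%), against 25.9% of all protein-coding genes, and within 50 kb 20 members (51.3%), against 35.6%. For the core particle the counts at 0, 10, 25 and 50 kb were 2, 3, 5 and 8 of 19, and for the regulatory particle 7, 10, 11 and 12 of 20. At 10 kb the core particle's 15.8% lay below the 18.3% of all genes, and at 50 kb its 42.1% lay above the 35.6%. The regulatory particle's share was above that of all genes at each of these windows, from 35.0% to 60.0%. Its median distance was 8.17 kb, against 57.5 kb for the core particle.

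**Figure D3:**
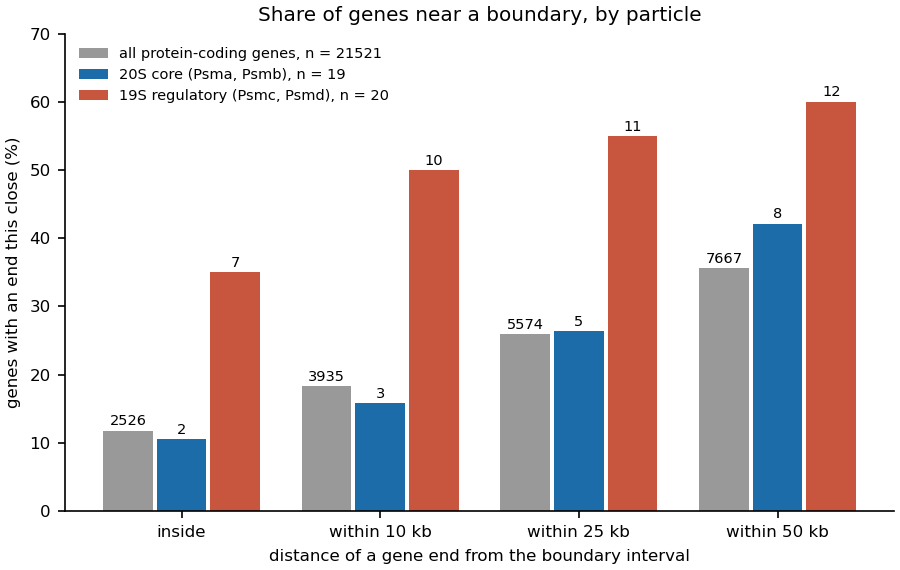
Share of genes, in percent, with an end within each window of a boundary interval, for the core particle, the regulatory particle and all protein-coding genes. Numbers above the bars are counts of genes. At 10 kb the shares are 15.8%, 50.0% and 18.3%.

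Which end of the gene faced the boundary also differed between members. A start site was at hand for 32 of the 39 members. It lay inside an interval for 5 of 32 (15.6%), against 7.04% of 17274 protein-coding genes with a start, and within 10 kb for 8 of 32 (25%), against 12.2%. The other end lay within 10 kb for 7 of 32 (21.9%), against 12.6%. Among these 32, Psmd4, Psmd9, Psmd12 and Psma1 had both ends within 10 kb. Psmd3 had no start at hand, but both its ends lay inside an interval. Psmd1, Psmd11, Psmd6 and Psmc6 had only the start there, and Psmc1, Psmc2 and Psma2 only the other end. Of the members, 5 had their midpoint in an interval (12.8%; Psma1, Psmd3, Psmd4, Psmd9 and Psmd12), against 6.52% of all protein-coding genes. Psmd3, Psmd4 and Psmd12 lay wholly inside, 3 of 39 (7.69%), against 2.67%.

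Gene length and gene density moved with these counts. Near members were longer, with a median of 18.5 kb against 8.20 kb for the other members, and had fewer protein-coding neighbours within 500 kb, 11 against 23.5. Among all protein-coding genes the share near a boundary rose with length, from 11.0% in the shortest class to 22.6% in the longest, the classes being the members' own length quartiles. The members did not follow that order: 0 of 10 were near up to 6.71 kb, 3 of 10 up to 12.3 kb, 7 of 9 up to 22.2 kb and 3 of 10 above. Shares of all protein-coding genes in the same classes were 11.0%, 16.4%, 20.8% and 22.6%. Of 17 members of up to 10 kb, 2 were near (11.8%; Psmd4 and Psmd6), against 12.0% of all genes of that length. Of 22 longer members, 11 were near (50.0%), against 21.8%.

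By neighbours within 500 kb, 5 of 11 members were near with up to 9, 5 of 9 with up to 17, 2 of 9 with up to 32.5 and 1 of 10 above. For all protein-coding genes the shares in these classes were 25.2%, 19.6%, 13.7% and 11.0%. With the members' mix of lengths the share of all genes would be 17.6%, and with their mix of neighbour counts 17.6% as well. For the regulatory particle's mix of lengths it was 18.5% and for the core particle's 16.6%. The core particle's 8 genes in the shortest length class included none near a boundary. In that class 11.0% of all protein-coding genes were near, and at that share a group of 8 can hold none. Of the regulatory particle's 8 genes from 12.3 to 22.2 kb, 6 were near, whereas the core particle had 1 gene there, and it was near. Among all protein-coding genes of that length 20.8% were near. The part of length in the gap between the particles was not tested.

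**Figure D4:**
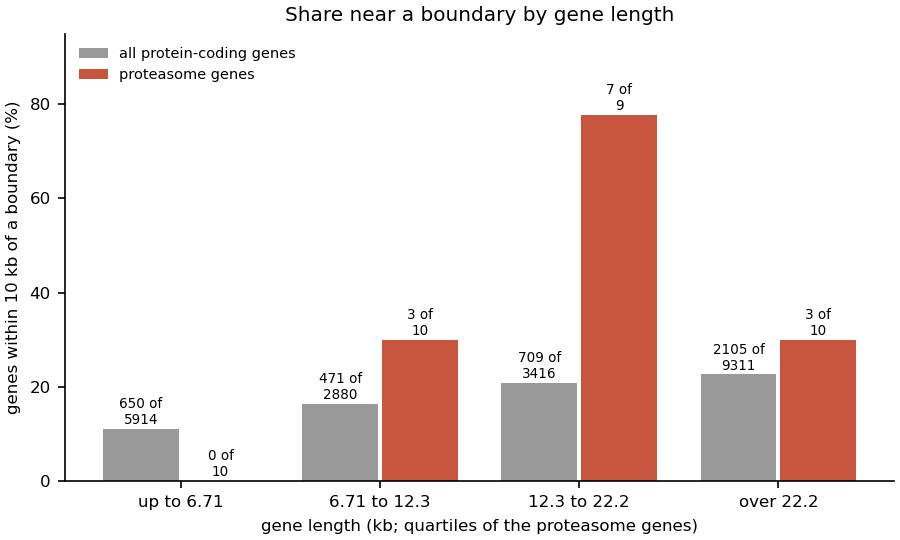
Share of genes near a boundary, in percent, in 4 classes of gene length set at the members' quartiles, for the proteasome genes (with the count of near genes over genes) and for all protein-coding genes. The members' share is 0% in the shortest class and 77.8% in the class from 12.3 to 22.2 kb, while that of all genes runs from 11.0% to 22.6%.

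The near members lay on 9 chromosomes. Chromosome 11 had 3 of its 6 members near a boundary, where 17.1% of all its protein-coding genes were near. Chromosome 2 had 0 of its 5, where 18.1% were near. Groups of 6 and 5 genes are too small to read as shares. No interval was near more than 1 member. The intervals of the 13 near members had a median of 2 protein-coding genes with an end inside or within 10 kb and at most 4, against a median of 1 and a maximum of 12 over the 2261 intervals that have any. The 13 intervals were picked through a member, which is itself counted, and picking by gene favours intervals with more genes. These medians thus do not compare like with like. The fullest of the 13 intervals was that of Psmd3, shared with Gsdma, Csf3, which encodes a granulocyte growth factor, and Med24, a Mediator subunit.

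On both sides of these boundaries the domains differed in length and content. Above the interval of Psma2 lay 1100 kb with Gli3, a transcription factor of the Hedgehog pathway, as its one protein-coding gene, and below it 425 kb with Psma2, Mrpl32 and Hecw1. Psmd6 shared a 175 kb domain with Thoc7 and Atxn7, next to one of 2050 kb with 6 genes. Psmc6 opened a 475 kb domain with 5 genes, next to one of 4250 kb with 62. Psmc1 shared 225 kb with Kcnk13 and Tdp1. For Psmd3 the sides were more alike, at 450 kb with 18 genes and 625 kb with 20.

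The 34 members whose midpoint fell in a domain lay in domains of a median 650 kb (quartiles 481 and 869 kb), close to the 675 kb for all protein-coding genes (quartiles 425 and 1050 kb), with a median of 14 protein-coding genes against 12. On a scale of depth where 0% is a domain edge and 100% its middle, the median was 27.7% for members and 44.5% for all. The regulatory particle's genes had a median depth of 21.0%, and those of the core particle, at 45.3%, lay no nearer the edge than all genes. The members in the fullest domains were Psmb6, with 47 protein-coding genes in 1025 kb, Psmb10, with 45 in 1350 kb, among them Ctcf, and Psmc4, with 44 in 1225 kb. None of these was near a boundary. The emptiest, with 3 genes each, were those of Psma2, Psmc1 and Psmd6, all near one.

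**Figure D5:**
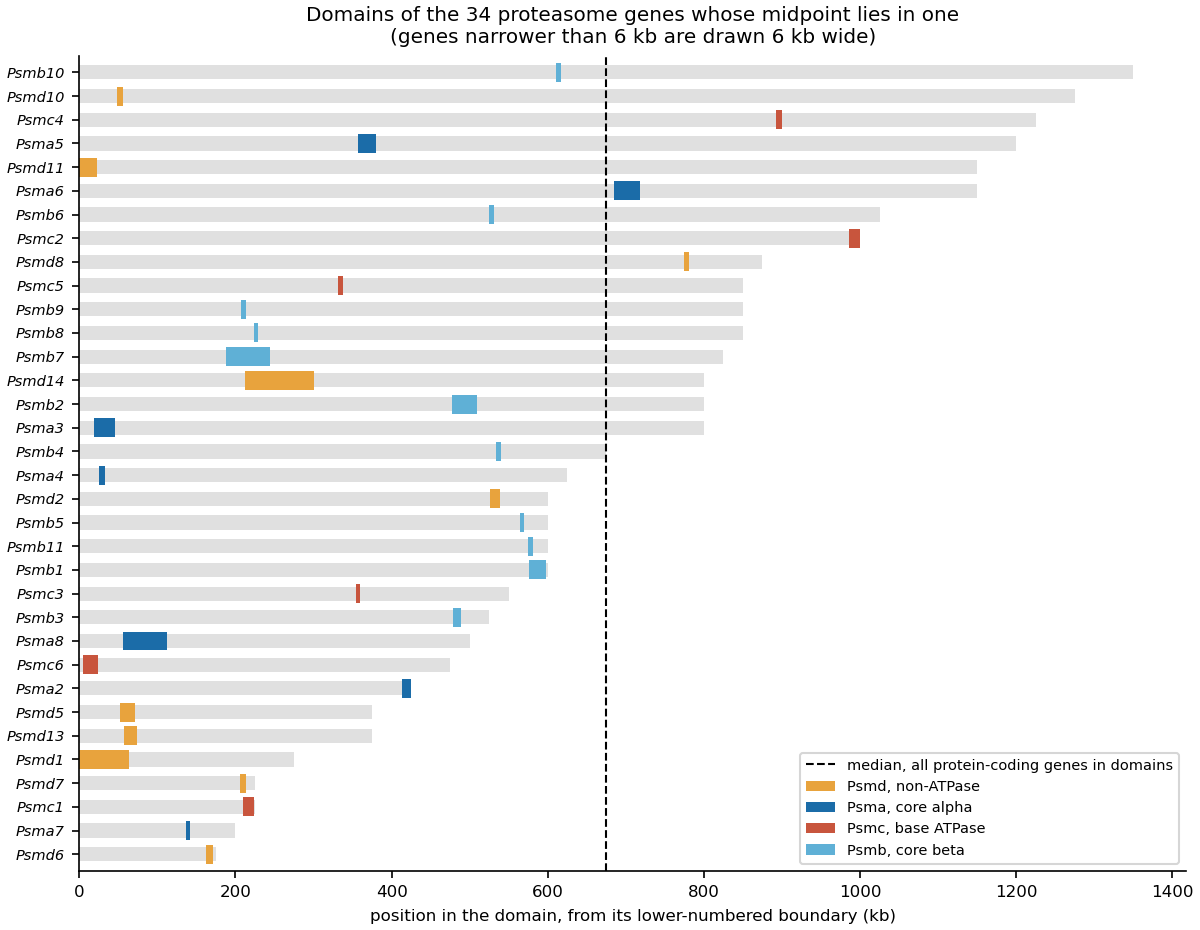
Domains of the 34 members whose midpoint lies in a domain, as grey bars sorted by domain length in kb. Coloured marks show the position of each gene from the lower-numbered boundary, by class, with the shortest genes drawn wider than they are. The dashed line is the median domain length for all protein-coding genes, 675 kb. The domain of Psmd6 is 175 kb long and that of Psmb10 1350 kb.

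Few members shared a domain. Psmb5, a constitutive proteolytic subunit, and Psmb11, its thymus counterpart, lay 7.31 kb apart in a domain of 600 kb with 16 genes. Psmb8 and Psmb9 lay 10.9 kb apart in a domain of 850 kb with 39 genes, together with Tap1 and Tap2, which encode the peptide transporter of antigen presentation, and with class I and class II histocompatibility genes such as H2-K1 and H2-Ab1. All other members were alone among the members in their domain. Psmb4 and Psmd4 were 146 kb apart on chromosome 3, with 1 boundary between them, the one that holds Psmd4.

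Of 24 other genes of the pathway, 7 (29.2%) were near a boundary, against 18.3% of all protein-coding genes. All 4 Psmg genes, whose products pair up to assemble the alpha ring, were among them: Psmg2, Psmg3 and Psmg4 had an end inside an interval and Psmg1 was at 4.93 kb. Pomp, the chaperone of beta ring assembly, was at 24.2 kb. Of the activators and inhibitors, Psmf1 and Ecpas had an end inside an interval, 2 of 6. Psme1 and Psme2, which encode the interferon-induced activator, shared a domain of 450 kb with 33 genes and were not near. Of the partners of the base, Uchl5, a deubiquitinase, had an end inside, while the ubiquitin receptor Adrm1 was at 46.6 kb, Usp14 at 18.6 kb and the small lid subunit Sem1 at 258 kb. Adrm1 was 129 kb from Psma7, with 1 boundary between them.

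Of the 4 genes for transcriptional control of the subunits 0 were near, as were 0 of the 5 shuttle factor genes, which bring ubiquitinated proteins to the proteasome. With 18.3% of all protein-coding genes near, less than 1 gene would be near in a group of either size, so these counts say nothing of the groups. Nfe2l1, the transcription factor that raises subunit expression when the proteasome is inhibited, was at 370 kb, its relative Nfe2l2 at 75.5 kb, its protease Ddi2 at 76.6 kb and the deglycosylase Ngly1 at 24.3 kb. Among other multi-subunit complexes of all cells, 28 of 81 cytoplasmic ribosomal protein genes (34.6%), 18 of 78 mitochondrial ribosomal protein genes (23.1%) and 4 of 9 genes of the CCT chaperonin (44.4%) were near. The proteasome genes' 33.3% lay within that range, but the lists differ in gene length. Median length was 3.16 kb for the cytoplasmic ribosomal protein genes and 12.3 kb for the members. Of genes up to 10 kb, 27 of 80 cytoplasmic ribosomal (33.8%), 11 of 55 mitochondrial ribosomal (20.0%) and 2 of 17 proteasome genes (11.8%) were near. The share of all genes of that length was 12.0%.

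Motifs were searched in the 250 bases before the start, on both strands, in 32 members and 17274 protein-coding genes. A match is a string of letters and not a shown site. Psma8, Psmb1, Psmb2, Psmb7, Psmc3, Psmd3 and Psmd7 were not among the 32. The Ets-type string CCGGAAG stood in 8 members (25%), against 9.26% of all promoters. Of those 8, 7 were near a boundary (Psmc1, Psmc2, Psmc6, Psmd4, Psmd6, Psmd11 and Psmd12), and the other was Psmd2. Over all protein-coding genes, 433 of the 1600 with the string were near. All 8 members belong to the regulatory particle. Counted the other way, 7 of the 11 near members among the 32 held the string, against 13.8% of all 3129 near genes with a promoter. The link between the string and boundaries was not tested. In the promoters printed above it stands 11 bases before the start in Psmd11, 17 in Psmd12 and 125 in Psmd4.

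The other strings stood closer to their share in all promoters. The CCAAT box was found in 13 members (40.6%), against 36.8%, and the GC box GGGCGG in 18 (56.3%), against 43.2%. The core of the antioxidant response element, to which Nfe2l1 and Nfe2l2 bind, was searched as TGACNNNGC and found in 5 members (15.6%; Psmb5, Psmb6, Psmc6, Psmd9 and Psmd12), against 10.6%. In Psmd9 it overlaps the GC box. The AP-1 string TGAGTCA was found in Psmd9 alone (3.13%, against 4.01%). The string GCATGCGC, of the NRF1 type, was in Psma2 and Psmc5 (6.25%, against 3.00%). Psma2 had 4 matches, of which those 127 and 125 bases before the start overlap. A part of the CTCF motif, AGGGGGC, was in Psma4, Psma7, Psmb9 and Psmc6 (12.5%, against 11.5%), of which Psmc6 was near a boundary. Over all protein-coding genes, 418 of the 1992 with this part of the motif were near. The Psmd1 promoter held none of these strings. The GC content of the 250 bases had a median of 55.2% in members and 55.6% in all.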

How the data were processed

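The deposited file is a list of boundary intervals that the authors made from the pooled libraries of 6 DMSO-treated ESC samples, with chromosome, start and end. Per the submitters' processing notes, reads were processed with BWA 0.7.17 and Juicer 1.22.01 on mm10. For the boundary caller and its thresholds, the sources used here give none. Positions are counted from 1. RefSeq's GRCm38.p6 annotation gave the genes, of which 345 with scaffold positions were left out and 49209 kept. Start sites and strand came from a RefSeq promoter table that is not complete. Distances run from a gene end to the nearest edge of an interval, and are 0 inside. The members, gene lists and rules were chosen with earlier results of these data known, so no chance test was run. Divergent pairs, pseudogenes and the pooling of classes into particles were chosen after seeing the data. All members could be named, and near members got full values. Neighbours were named where they share an interval or domain with a member by the rule, apart from Ctcf, Tap1, Tap2 and H2 genes and the genes beside Psma2, picked after their positions were seen. The counting was tested on simulated data. Protein sequences were not analysed here. Python 3.11.15, numpy 2.4.6 and pandas 2.3.3 were used.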

Additional observations from a re-analysis of the deposited data

How the results depend on the processing

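No paired analysis was possible because the list is pooled over the 6 libraries and has no values per sample. Leaving out a library was not possible for the same reason. The count of near proteasome genes, 13 of 39, became 20 with a window of 50 kb, 8 of 32 with the annotated start alone and 2 of 17 among genes of up to 10 kb. The ratio to the share of all protein-coding genes, 1.82, fell to 0.984 among genes of up to 10 kb, below 1, and was 1.44 to 2.29 under the other 11 alternatives, 1.65 without chromosome 11. By class, the base ATPases had 1 near gene with no window, the alpha genes 4 at 50 kb, and the beta genes 0 with no window, 2 at 25 kb and 4 at 50 kb. The core particle had 5 at 25 kb and 8 at 50 kb. Of the 32 members with a start, 11 were near by either end and 8 by the start alone. By the rule, a wider window can only add near genes, and leaving out the window can only remove them. A subset of the members can hold no more near genes than all of them. Why the ratio fell among genes of up to 10 kb was not tested. The median distance was 34.3 to 60.9 kb under its 5 alternatives. The pooled particles, the ratio by length and by start, and the median without chromosome 11 were chosen after seeing the data. Intervals of 25 kb set the resolution: distances below that size depend on where the interval was drawn.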

Other observations

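Some proteasome genes start back to back with a neighbour. Of the 32 members with a start, 5 (15.6%) had an opposed start of another protein-coding gene within 1 kb, against 7.61% of protein-coding genes with a start. The pairs were Psma2 with Mrpl32, a mitochondrial ribosomal protein gene, Psma7 with Ss18l1, Psmb9 with Tap1, Psmc5 with Ftsj3 and Psmd13 with Sirt3, a mitochondrial deacetylase gene. In the pair of Psma2 the starts were 205 bases apart. Psma2 was the 1 of these 5 that was near a boundary. Among all protein-coding genes with a start, 390 of the 1315 with such a pair were near. A group of 5 is too small to read as a share.

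The annotation also holds 6 pseudogenes named after members. Psmb7-ps2 had an end inside an interval, whereas its parent Psmb7 was 188 kb from one. Psmb7-ps1 was 25.8 kb, Psma5-ps 138 kb, Psmb6-ps 149 kb, Psmb5-ps 184 kb and Psmb6-ps2 2388 kb away. Among all annotated pseudogenes 6.64% were near a boundary, with a median distance of 189 kb.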
